A study of Homo sapiens with 9 samples.

Results

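BCL10 R58Q and BCL10 S136X were compared directly by RNA-seq in RIVA cells, an established lymphoma line of the activated B-cell-like type (ABC-DLBCL). The comparison used the 3 R58Q libraries and the 3 S136X libraries, which are 6 of the 9 libraries of the series, and the 3 libraries of empty vector served only to show on which side of the mutants the starting level lay. In all 3 groups a doxycycline-inducible lentiviral construct (pLVX-Tetone) was carried in puromycin-selected RIVA cells, which keep their own BCL10, and RNA was taken after 24 h of doxycycline. The dose is given as 200 ng/mL in the treatment protocol and as 200 ng/µL among the sample characteristics. Whether a group derives from 1 clone is not stated in the labels. The study calls the replicates biologic, but the labels do not say that they came from separate cultures. The p-values therefore rest on the spread between these libraries only, which may be technical. In the main fit, with replicate number as a block, they measure the spread left after differences between replicate numbers are removed. The deposited column names carry 1 date for the vector and S136X libraries and a later date for the R58Q libraries, so construct and date cannot be told apart in any value below.

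BCL10 links antigen-receptor signaling to NF-kB. Through its N-terminal CARD it forms filaments, these recruit the paracaspase MALT1, and the resulting CBM complex leads to activation of the IKK kinases, degradation of the inhibitor IkB-alpha and entry of NF-kB dimers into the nucleus, where they drive cytokines, survival genes and their own inhibitors. R58Q exchanges an arginine within the CARD for glutamine, and S136X places a stop codon after the CARD. The codon changed in R58Q is shown because it is a designed difference between the groups. It is given on the sense strand of the GENCODE 29 reference transcript (GRCh38, minus strand of chromosome 1), with the codon in capitals and its neighbouring bases in lower case. It lies in exon 2 at chr1:85270790-85270792, within the printed chr1:85270760-85270822.
R58Q codon: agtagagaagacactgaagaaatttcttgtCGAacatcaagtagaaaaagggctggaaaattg
The reference protein has 233 residues, so that the stop of S136X leaves 135 of them. The sequences carried by the constructs themselves were not analysed here.

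BCL10 (ENSG00000142867.14, chr1:85265776-85276632) was read first, as a check of the labels of vector against mutant. Counts per gene cannot check which mutant is R58Q and which is S136X. Levels are given as CPM, read counts divided by library size after TMM correction, and these counts pool the endogenous gene and the construct. BCL10 stood at 26.3, 38.8 and 27.5 CPM in vector replicates 1, 2 and 3, at 488, 410 and 345 CPM in S136X and at 357, 338 and 309 CPM in R58Q. All 6 mutant libraries lay above all vector libraries, while the mutants overlapped. Within each replicate number R58Q was the lower of the pair. The fitted difference on the log2 scale was -0.30 for R58Q minus S136X (SE 0.048, adjusted p = 1.89e-04), which is 1.23-fold and below the 1.5-fold needed for a call. Without the replicate number as a block the same difference had an adjusted p of 0.363, and in a fit of all 9 libraries it had an adjusted p of 0.105.

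Total counts ranged from 28047713 to 33122267 per library. Libraries of the same replicate number deviated together from their group means, with r = 0.656, 0.525 and 0.436 over 15195 genes, against -0.478 to 0.0339 for different numbers. Deviations cancel out within a group, so high same-number values by themselves draw the others down. The plan of the comparison named the replicate number as a block, and with these same-number values it was kept. The 8 B-cell identity markers summed to 3612 to 4587 CPM in S136X and 3562 to 4371 CPM in R58Q. The 13 T-cell and NK-cell markers summed to 7.89 to 14.2 CPM in S136X and 7.89 to 16.0 CPM in R58Q. CD8B and KLRD1 were at 0 in every library, but not all members were near 0. In the mutant libraries CD8A had 81 to 187 counts, CD4 9 to 49 and GZMB 6 to 27. The 11 myeloid markers summed to 0.376 to 0.775 CPM in S136X and 0.668 to 0.741 CPM in R58Q, with FCGR3A at 0. Of the 12 epithelial, stromal and erythroid markers, summing to 62.8 to 87.3 CPM in S136X and 66.9 to 89.4 CPM in R58Q, KRT19, VWF, HBB and HBA1 were at 0 in every library, and EPCAM gave 32.9 to 53.6 CPM in the mutants. Of these marker lists the only call was COL1A2, a collagen chain, at 3.62, 1.49 and 1.37 CPM in S136X and 2.36, 0.768 and 0.918 CPM in R58Q (log2 difference -0.70, SE 0.189, adjusted p = 0.0174, and 0.738 without the block). COL1A1, another collagen chain of the same list, went the other way and was not called. It had 281, 336 and 463 counts in S136X and 317, 349 and 562 counts in R58Q.

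Of 15195 genes tested, 446 (2.94%) were called, meaning that the mutants differed by 1.5-fold or more with an adjusted p under 0.05. Of these, 206 (1.36%) were higher in R58Q and 240 (1.58%) were lower. The 2 directions differed in kind. Among protein-coding genes 169 were higher and 40 lower, and genes called higher had a median level of 6.74 CPM (not corrected for gene length) over the mutant libraries, against 1.17 CPM for genes called lower and 18.0 CPM for all genes tested. In 371 of the 446 called genes the R58Q and S136X libraries did not overlap, beside 17.0% of all genes tested. Called genes were chosen for a difference between these same libraries, so a high share is built in and supports nothing. Fitted without the replicate block, 66 genes were called, 41 higher (0.270%) and 25 lower (0.165%), all 66 of them within the 446. Leaving out replicate 1 reduced the genes called lower from 240 to 143, and 127 of these were among the 240.

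**Figure D1:**
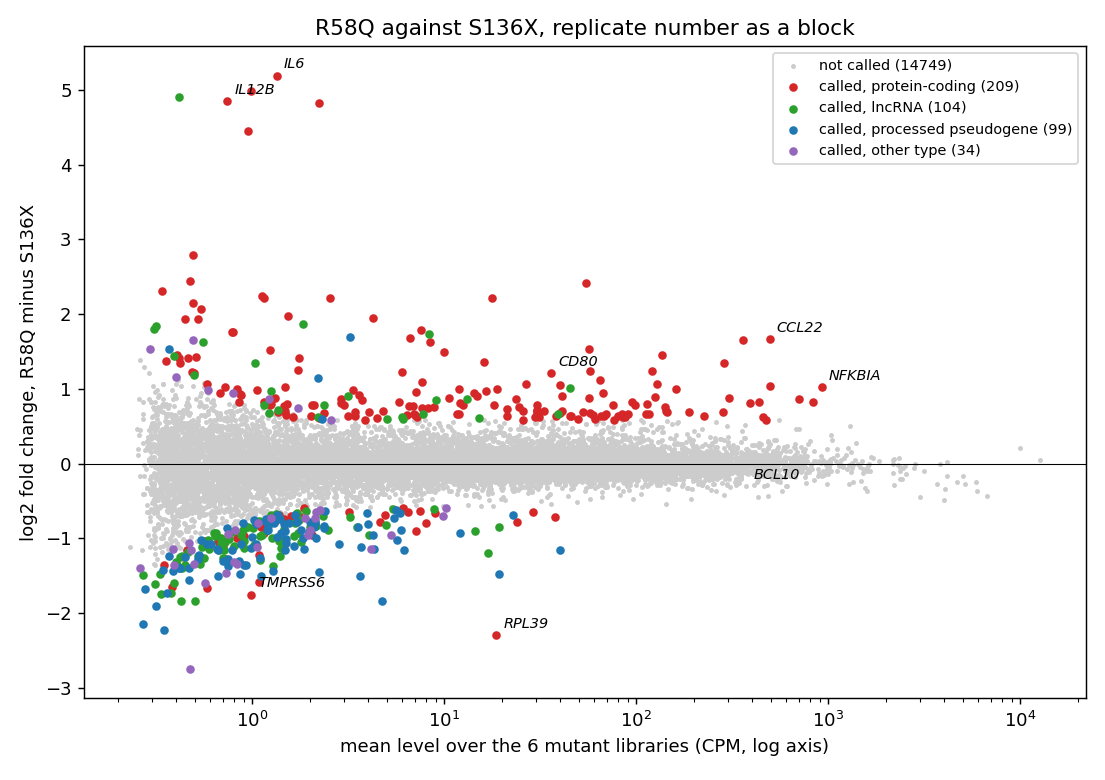
Each point is a gene, placed by its mean level over the 6 mutant libraries (CPM, log axis) and its log2 fold change, R58Q minus S136X. Called genes are coloured by type. The 209 called protein-coding genes lie mostly above 0 and reach high levels, and the 99 called processed pseudogenes lie mostly below 0 at low levels.

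The position of the vector libraries differed between the directions. For 104 of the 206 genes higher in R58Q (50.5%), all vector libraries lay below all 6 mutant libraries, so that both mutants stood above vector and R58Q stood further above it. For 66 (32.0%) the vector libraries overlapped S136X but not R58Q. Among the 240 genes lower in R58Q, the vector libraries overlapped S136X but not R58Q in 131 (54.6%), overlapped both mutants in 64 (26.7%) and lay between the mutants in 22 (9.17%). Vector and S136X are the groups that share a column date. These shares were not computed over all genes tested, so whether they are unusual cannot be read from them. Choosing genes in which the mutants differ also limits how often vector can overlap both.

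Components of the complex itself gave no calls, which says little for a list of this size. BCL10, the induced gene, is among them. Of the 13 tested genes for the CBM complex, IKK kinases and their upstream adaptors, 0 were called, beside 2.94% of all genes. By the adjusted p alone 2 passed in each direction (beside 7.84% of all genes higher and 6.71% lower), and the median log2 difference was -0.034. An unadjusted p under 0.05 in edgeR was found for 4 of the 13, beside 4096 of all 15195 genes, and DESeq2 and limma-voom also called 0. MALT1, the paracaspase, gave 188, 205 and 179 CPM in S136X and 183, 195 and 179 CPM in R58Q (log2 difference -0.045, SE 0.0408, adjusted p = 0.531).

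Some of the NF-kB target genes were called higher in R58Q than in S136X. Of the 49 tested members of the list, 15 were called higher and 0 lower, 44 had a fitted difference above 0, and the median log2 difference was 0.43, beside 0.00232 over all genes tested. Over all 634 tested genes of the 27 lists, edgeR called 2 lower (RPL39 and COL1A2), limma-voom 2 and DESeq2 1, and 72 were lower at an unadjusted p under 0.05. Among the 15 were IL4I1, IRF1, CD80, EBI3, MIR155HG, CD44, PLEK, CD40, CCR7, BCL2A1, SGK1, GPR183, MAP3K8 and FAS, and 8 of the 15 were also called without the block. Against vector, the median of the list was 0.96 for S136X and 1.39 for R58Q; these values share the vector libraries. The summed level of the list ranged from 6782 to 6906 CPM in S136X and from 8470 to 9835 CPM in R58Q, with 3822 to 4005 CPM in vector, so that the 3 groups did not overlap. In bulk RNA, more cells expressing a gene and more RNA per cell cannot be told apart.

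CD80, a ligand of the T-cell costimulatory receptor CD28, gave 18.7, 22.6 and 22.9 CPM in S136X and 51.9, 41.9 and 56.7 CPM in R58Q, with 3.12, 5.13 and 6.03 CPM in vector (log2 difference 1.21, SE 0.0781, adjusted p = 2.73e-09). The 3 groups did not overlap, and R58Q was the highest. IL4I1, a secreted amino acid oxidase, gave 84.3, 63.2 and 64.9 CPM in S136X and 265, 126 and 211 CPM in R58Q. The R58Q and S136X libraries did not overlap in this gene either, and the log2 difference was 1.45 (SE 0.086, adjusted p = 1.00e-09, and 0.056 without the block).

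The inhibitor and adaptor genes that NF-kB induces as feedback showed a smaller shift. NFKBIA, which encodes IkB-alpha, gave 329, 288 and 297 CPM in vector, 638, 597 and 576 CPM in S136X and 1404, 1016 and 1310 CPM in R58Q. Each mutant lay above vector and R58Q above S136X with no overlap. The log2 difference was 1.02 (SE 0.0595, adjusted p = 7.84e-10), and it was the only called gene among the 11 NF-kB subunits and IkB inhibitors, whose median was 0.15. Of the 22 tested feedback and adaptor genes 3 were called higher and 0 lower (median 0.10). TRAF1, an adaptor of TNF receptors, stood at 142, 173 and 167 CPM in S136X and at 411, 365 and 458 CPM in R58Q (log2 difference 1.34, SE 0.0618, adjusted p = 6.46e-11). TNIP2, a partner of the deubiquitinase A20, gave 26.2, 33.5 and 32.9 CPM in S136X and 47.4, 47.0 and 54.1 CPM in R58Q, and its call was lost without the block (adjusted p = 0.0578). BIRC2, the ubiquitin ligase cIAP1, gave 46.2, 53.3 and 44.6 CPM in S136X and 73.9, 70.2 and 75.5 CPM in R58Q, while vector overlapped S136X at 42.0, 45.5 and 46.8 CPM. Its log2 difference of 0.60 (SE 0.0591, adjusted p = 6.76e-07) fell under the fold threshold without replicate 1, without replicate 3 and with upper-quartile scaling.

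**Figure D2:**
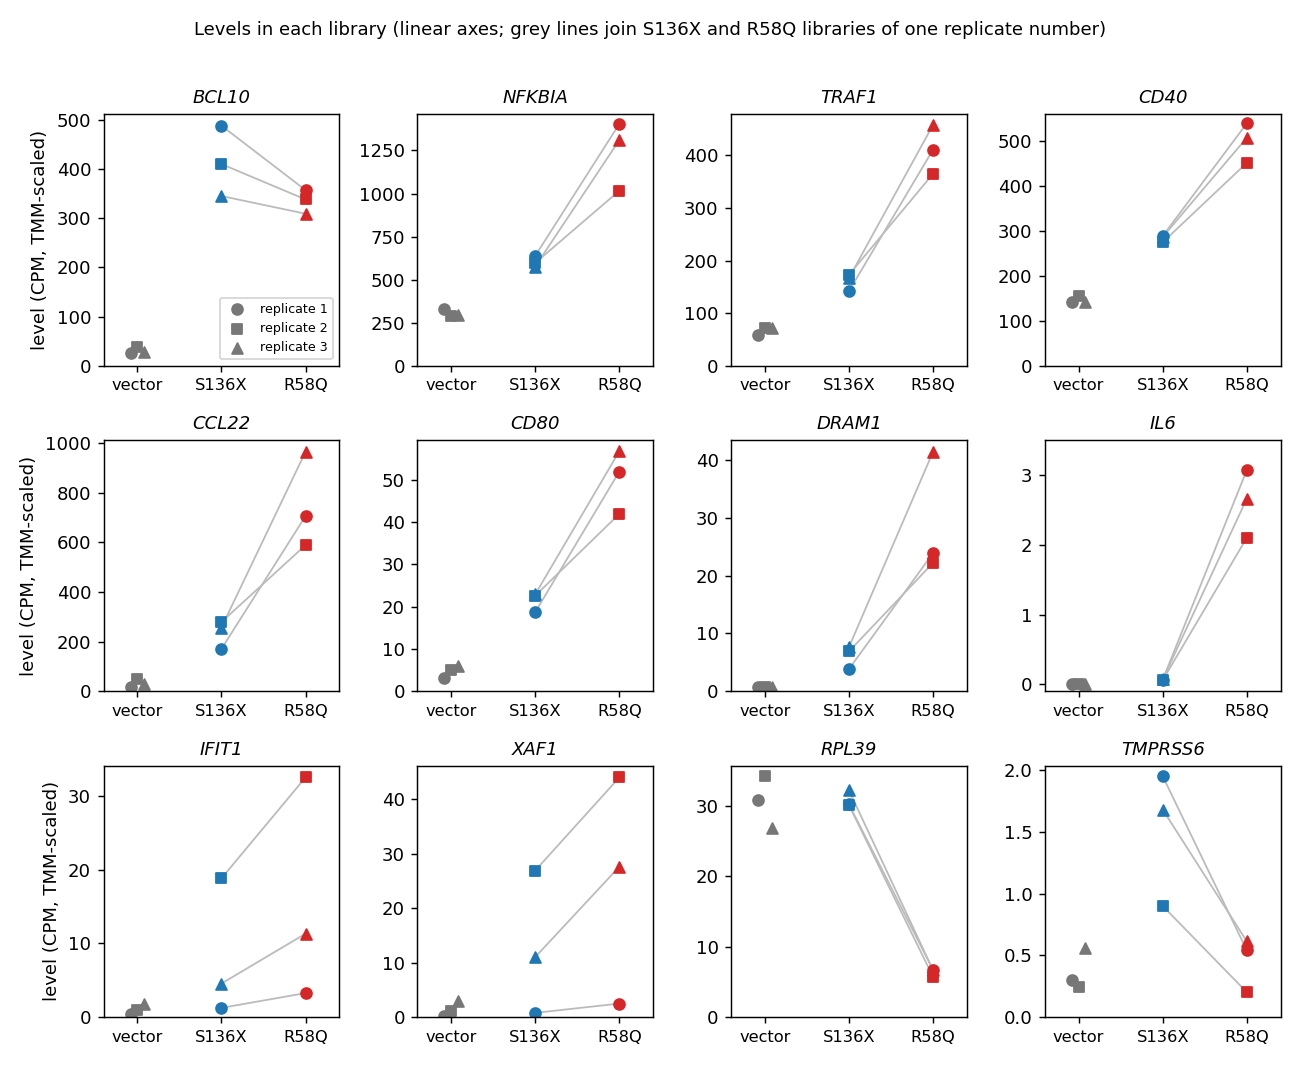
Levels of 12 named genes in each of the 9 libraries (CPM, linear axes from 0, with IL6 drawn from just below 0), by group and replicate number. Grey lines join the S136X and R58Q libraries of a replicate number. NFKBIA, TRAF1, CD40, CCL22, CD80 and DRAM1 step up from vector to S136X to R58Q without overlap, IFIT1 and XAF1 vary more between replicate numbers than between mutants, and RPL39 is low only in R58Q.

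Among secreted ligands, 10 of 40 tested genes were called higher in R58Q and 0 lower, with a median log2 difference of 0.30. They were IL6, IL12B, IL27, CCL22, LTA, EBI3, TNF, CXCL10, IL23A and CCL17, of which 6 were also called without the block. IL6, IL12B and IL27 stayed under the filter's minimum of 10 counts in every S136X library. They were tested only because of their R58Q counts, so a call could only be higher. Of the 76 listed ligands, 26 had at most 3 counts in any library and 14 had none at all. IL6, a cytokine that signals through JAK kinases and STAT3, had 2, 2 and 2 counts in S136X and 91, 63 and 87 counts in R58Q, with 0 counts in each vector library. The ratio of the summed counts of R58Q over S136X was 39.2, with an exact binomial 95% interval of 17.7 to 108 that covers counting error only. IL12B, the p40 subunit shared by IL-12 and IL-23, had 0, 3 and 1 counts in S136X and 25, 30 and 80 counts in R58Q (ratio 32.9, interval 12.6 to 123). The fitted log2 differences were 5.19 for IL6 (SE 0.335, adjusted p = 2.77e-09) and 4.85 for IL12B (SE 0.482, adjusted p = 7.61e-07). In R58Q these transcripts reached only 2.10 to 3.07 CPM for IL6 and 0.842 to 2.45 CPM for IL12B.

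CCL22, a chemokine for cells bearing CCR4, had far more counts. It stood at 17.0, 51.6 and 28.5 CPM in vector, at 171, 279 and 257 CPM in S136X and at 706, 589 and 965 CPM in R58Q. None of the 3 groups overlapped, and the log2 difference was 1.67 (SE 0.109, adjusted p = 3.25e-09). IL27, the p28 subunit of IL-27, was at 0.155 to 0.308 CPM in S136X and 0.635 to 1.08 CPM in R58Q, a ratio of summed counts of 3.90 (interval 2.34 to 6.83), and its call was lost without the block (adjusted p = 0.0886). LTA and TNF, the ligands of TNF receptors, were named after their values were seen. LTA gave 163, 178 and 167 CPM in S136X and 583, 426 and 630 CPM in R58Q, and TNF gave 330, 325 and 307 CPM in S136X and 786, 560 and 658 CPM in R58Q. Their log2 differences were 1.66 (SE 0.0804, adjusted p = 7.79e-11) and 1.04 (SE 0.0605, adjusted p = 7.84e-10). LTB, the partner of LTA in membrane lymphotoxin, moved the other way without reaching 1.5-fold. It gave 82.8, 67.2 and 82.8 CPM in S136X and 62.4, 62.7 and 64.2 CPM in R58Q, a log2 difference of -0.30 (SE 0.0552, adjusted p = 8.09e-04, and 0.214 without the block), and was likewise named after its values were seen.

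Of 38 tested cytokine and TNF receptors, 5 were called higher (CNTFR, CD40, CCR7, IL10RB and FAS) and 0 lower, with a median of 0.16. Without the block 1 was called. CD40, the receptor through which T-cells activate B-cells, gave 289, 275 and 287 CPM in S136X and 540, 452 and 508 CPM in R58Q (log2 difference 0.81, SE 0.0436, adjusted p = 3.44e-10). These groups lay well apart, with vector lower still at 141, 156 and 142 CPM. CNTFR, the receptor chain for ciliary neurotrophic factor, gave 1.06, 0.620 and 0.947 CPM in S136X and 6.67, 2.10 and 3.88 CPM in R58Q (log2 difference 2.22, SE 0.191, adjusted p = 1.17e-07, and 0.0886 without the block). CCR7, which guides lymphocytes into lymph nodes, gave 66.4, 63.8 and 83.4 CPM in S136X and 115, 103 and 155 CPM in R58Q (log2 difference 0.78, SE 0.0474, adjusted p = 1.21e-09, and 0.106 without the block). IL10RB stood at only 0.868 to 1.30 CPM in S136X and 1.58 to 2.00 CPM in R58Q, and its call was lost without the block (adjusted p = 0.279), in DESeq2, in the fit of all 9 libraries and with any of the 3 pairs left out.

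**Figure D3:**
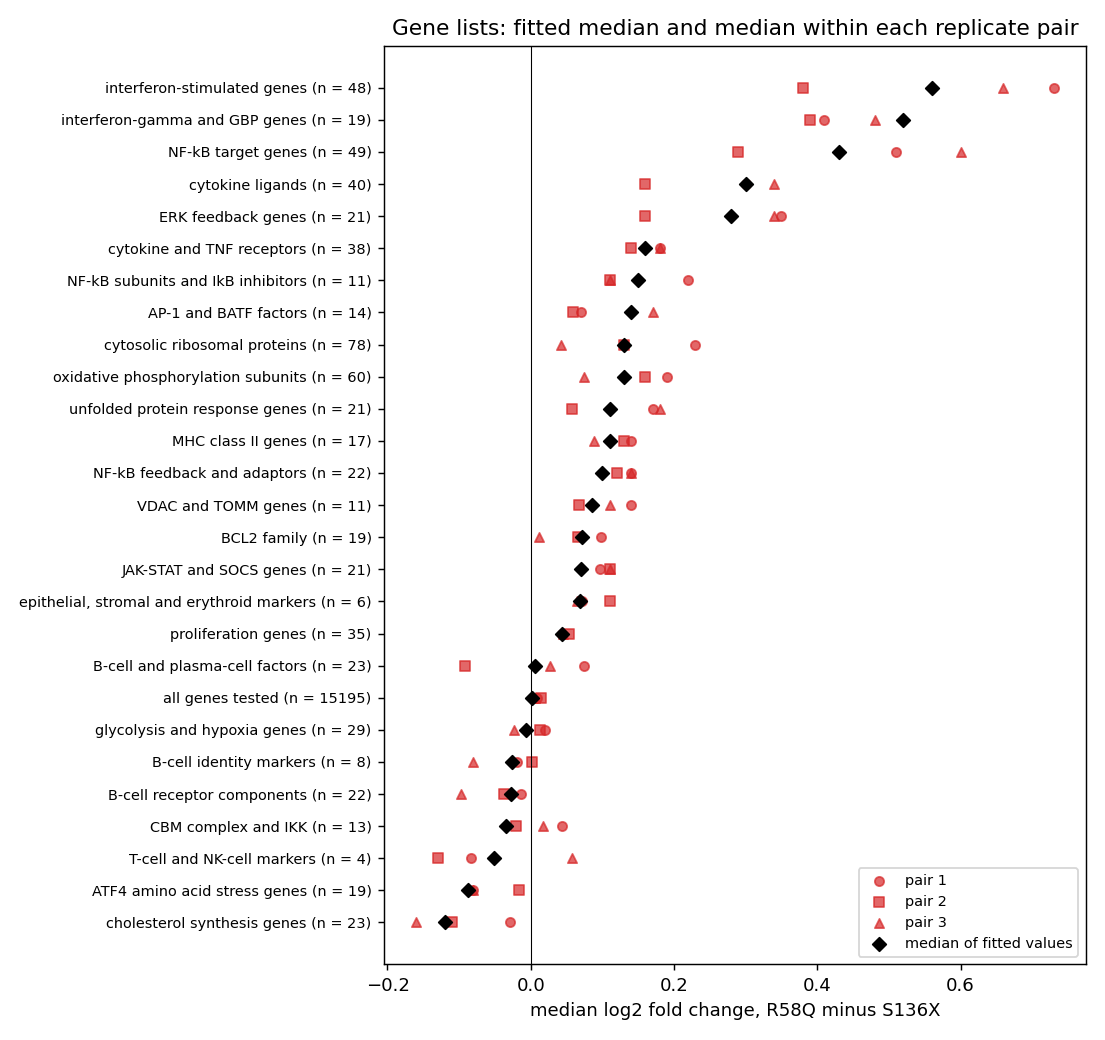
Median log2 difference, R58Q minus S136X, for 26 gene lists and for all genes tested, with the number of tested genes in brackets. Diamonds are medians of the fitted values, and red symbols are medians within each replicate pair (CPM plus 0.1). The interferon-stimulated genes, the interferon-gamma and GBP genes and the NF-kB target genes lie furthest to the right, at 0.56, 0.52 and 0.43, and cholesterol synthesis genes furthest to the left, at -0.12.

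Interferon-stimulated genes formed the list with the most called members. Of 48 tested, 20 were called higher in R58Q and 0 lower, 44 passed the adjusted p in that direction without the fold threshold, and the median log2 difference was 0.56. Without the block edgeR called 0 of the 48, with an unadjusted p under 0.05 in 1, while with it DESeq2 called 20 and limma-voom 19. The R58Q and S136X libraries did not overlap in 1 of the 48, beside 17.0% of all genes. Levels differed more between replicate numbers than between mutants. The summed level of the list was 1412, 4398 and 2589 CPM in S136X replicates 1, 2 and 3 and 2227, 5458 and 3879 CPM in R58Q replicates 1, 2 and 3, so that R58Q was the higher in each pair but R58Q replicate 1 lay below S136X replicates 2 and 3. Vector gave 962, 1346 and 1514 CPM. Median differences within the pairs were 0.73, 0.38 and 0.66.

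IFIT1, an RNA-binding antiviral protein, shows this pattern. It gave 1.23, 18.8 and 4.53 CPM in S136X and 3.24, 32.5 and 11.3 CPM in R58Q, with a log2 difference of 1.0 (SE 0.106, adjusted p = 1.65e-06 with the block and 0.841 without it). XAF1, an interferon-induced partner of XIAP, gave 0.752, 26.9 and 11.0 CPM in S136X and 2.46, 44.0 and 27.6 CPM in R58Q (log2 difference 1.0, SE 0.106, adjusted p = 1.67e-06, and 0.861 without the block). IFIT3 gave 6.59, 35.7 and 11.9 CPM in S136X and 19.0, 58.8 and 28.6 CPM in R58Q (log2 difference 1.06, SE 0.0986, adjusted p = 3.05e-07, and 0.670 without the block). In each of these genes the mutants overlapped and every pair went the same way. The call for IFIT1 was also lost in the fit of all 9 libraries. TRAC, a T-cell receptor constant gene, followed the replicate numbers as well, at 1.13, 8.46 and 4.35 CPM in S136X and 1.31, 12.3 and 4.04 CPM in R58Q (log2 difference 0.28, SE 0.134, adjusted p = 0.189). CD3D, CD3G and CD2 had at most 2 counts in any library and CD3E at most 9, while CD8A had 81 to 215.

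**Figure D4:**
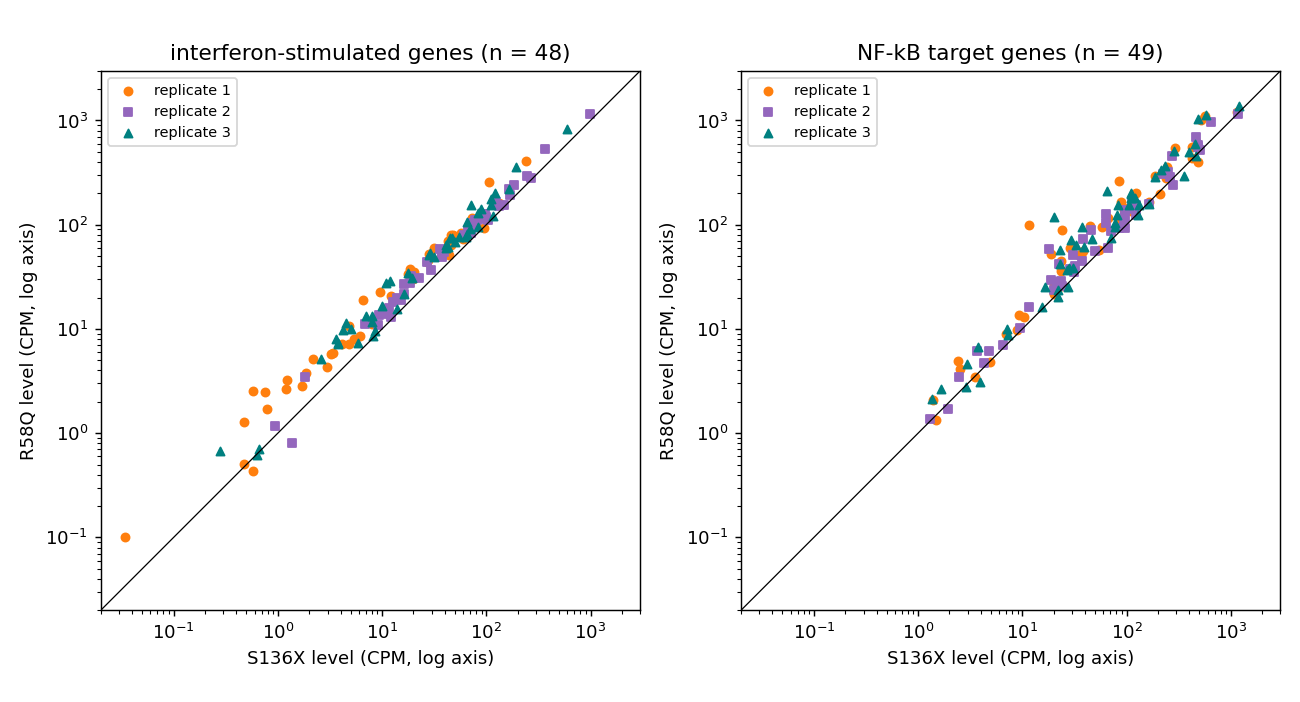
Level in R58Q against level in S136X of the same replicate number (CPM, log axes) for the 48 interferon-stimulated genes and the 49 NF-kB target genes, with 1 point per gene and pair. The line marks equal levels. Interferon-stimulated genes of replicate 1 sit lower on both axes than those of replicate 2, and most points of each replicate lie above the line.

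Genes of the interferon-gamma response and the GBP family gave 8 called higher of 19 tested and 0 lower, with a median of 0.52; without the block 1 was called. IRF1, the transcription factor at the head of this response and also a listed NF-kB target, gave 24.1, 45.6 and 32.7 CPM in S136X and 89.6, 89.2 and 63.5 CPM in R58Q (log2 difference 1.24, SE 0.111, adjusted p = 2.03e-07, and 0.0846 without the block). APOL6 gave 1.16, 2.82 and 1.23 CPM in S136X and 6.94, 7.48 and 5.72 CPM in R58Q (log2 difference 1.95, SE 0.172, adjusted p = 1.78e-07, and 0.0629 without the block). TAP1, the peptide transporter of antigen processing, gave 45.8, 125 and 84.5 CPM in S136X and 133, 223 and 160 CPM in R58Q (log2 difference 1.07, SE 0.0832, adjusted p = 3.09e-08, and 0.315 without the block). Of the 17 tested MHC class II genes 1 was called, HLA-DQA1, at 3.52, 16.6 and 11.0 CPM in S136X and 8.96, 27.2 and 21.3 CPM in R58Q. Its call was lost without the block (adjusted p = 0.660), and CD74, the invariant chain, had a log2 difference of 0.050 (SE 0.0417, adjusted p = 0.489).

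In the JAK-STAT and SOCS list, 4 of 21 tested genes were called higher and 0 lower (median 0.070). SOCS3, an inhibitor of cytokine receptors induced by STAT3, gave 2.63, 2.60 and 4.67 CPM in S136X and 9.87, 6.48 and 19.0 CPM in R58Q (log2 difference 1.79, SE 0.122, adjusted p = 5.37e-09, and 0.127 without the block). SOCS1, an inhibitor of JAK kinases, gave 2.84, 4.71 and 3.19 CPM in S136X and 7.25, 8.92 and 9.05 CPM in R58Q (log2 difference 1.22, SE 0.121, adjusted p = 7.09e-07, and 0.0635 without the block). STAT5A gave 80.2, 91.6 and 90.3 CPM in S136X and 164, 142 and 185 CPM in R58Q, and its call held without the block (adjusted p = 0.0154). JUNB was the only called member of the 14 tested AP-1 and BATF factors (median 0.14), at 58, 79.8 and 71.2 CPM in S136X and 95.5, 116 and 122 CPM in R58Q (adjusted p = 1.52e-08, and 0.0993 without the block). BATF, a partner of JUN proteins in B-cells, gave 163, 97.4 and 130 CPM in S136X and 164, 93.7 and 125 CPM in R58Q (log2 difference -0.044, SE 0.0423, adjusted p = 0.556). MAP3K8, a kinase that activates MEK, was the only called member of the 21 ERK feedback genes (median 0.28), at 122, 95.8 and 110 CPM in S136X and 202, 138 and 198 CPM in R58Q (adjusted p = 1.38e-08, and 0.106 without the block).

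Of 19 tested BCL2 family members, 2 were called higher and 0 lower (median 0.072). BCL2A1, an anti-apoptotic protein induced by NF-kB, gave 26.4, 35.7 and 36.2 CPM in vector, 89.2, 113 and 111 CPM in S136X and 165, 165 and 202 CPM in R58Q, with no overlap (log2 difference 0.76, SE 0.0553, adjusted p = 1.37e-08). BCL2L14, described as a facilitator of apoptosis, was at 1.03 to 1.61 CPM in S136X and 1.15 to 3.12 CPM in R58Q, and its call was lost without the block (adjusted p = 0.621), without replicate 3 and in DESeq2. None of the 11 VDAC and TOMM genes was called by edgeR, DESeq2 or limma-voom, beside 2.94% of all genes called by edgeR. Their median was 0.086, and 5 had an unadjusted p under 0.05 in edgeR, beside 4096 of all 15195 genes. TOMM40, of the mitochondrial import pore, had a log2 difference of -0.043 (SE 0.0398, adjusted p = 0.546).

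Lists tied to growth and to the B-cell state showed few calls. As only 2.94% of all genes tested were called, few calls say little for lists of this size. Proliferation genes gave 0 calls of 35 tested (median 0.044), glycolysis and hypoxia genes 0 of 29 (median -0.0067), B-cell and plasma-cell factors 0 of 23 (median 0.0062), unfolded protein response genes 0 of 21 (median 0.11) and B-cell identity markers 0 of 8 (median -0.026). DESeq2 and limma-voom also called 0 in each of these 5 lists. In edgeR the unadjusted p was under 0.05 for 14, 10, 10, 12 and 4 of their genes in the same order, beside 4096 of all 15195 genes. IRF4, a factor on which ABC-DLBCL depends, gave 1151, 1166 and 1197 CPM in S136X and 1213, 1147 and 1382 CPM in R58Q (log2 difference 0.077, SE 0.0458, adjusted p = 0.302). B-cell receptor components gave 1 call of 22 (FCRL2, log2 difference 0.59, SE 0.0664, adjusted p = 3.80e-06, and 0.446 without the block), and CD79A had a log2 difference of -0.015 (SE 0.0409, adjusted p = 0.860). SLC3A2, the heavy chain of amino acid transporters, was the only call of the 19 tested ATF4 amino acid stress genes (median -0.088), at 226, 204 and 212 CPM in S136X and 392, 325 and 330 CPM in R58Q (log2 difference 0.69, SE 0.043, adjusted p = 1.66e-09). Cholesterol synthesis genes gave 0 calls of 23 and a median of -0.12, with 8 lower and 2 higher by the adjusted p alone. Oxidative phosphorylation subunits gave 0 calls of 60 and a median of 0.13, with 26 higher and 1 lower by the adjusted p alone. In the cholesterol and oxidative phosphorylation lists, edgeR's unadjusted p was under 0.05 for 14 and 32 genes, and the other tools called 0.

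Cytosolic ribosomal protein genes gave 1 call of 78, and it was a lower one. By the adjusted p alone 38 were higher and 3 lower, with a median of 0.13 that stayed between 0.093 and 0.20 in all alternatives. RPL39 (ENSG00000198918.8, chrX:119786504-119791630), a small protein of the large subunit, stood at 30.9, 34.3 and 26.8 CPM in vector, at 30.2, 30.1 and 32.2 CPM in S136X and at 6.67, 5.68 and 6.64 CPM in R58Q. Vector and S136X overlapped, and R58Q lay far below both. The log2 difference was -2.29 (SE 0.0749, adjusted p = 2.37e-13), the lowest among called protein-coding genes without overlap and of at least 1 CPM in S136X, and it was called under every alternative that could be fitted. Of the 31-base words of its longest GENCODE transcript, 9.23% also occur in other genes, so the split of its reads among copies is uncertain.

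The other large differences upward came from genes at low levels. ADIRF had 13 counts in all S136X libraries and 401 in all R58Q libraries (ratio 30.1, interval 17.4 to 57.0), NXPH3, a neurexophilin, 5 and 176 (ratio 34.3, interval 14.4 to 107) and CFAP46, a protein of the ciliary axoneme, 7 and 170 (ratio 23.7, interval 11.2 to 59.8). All 3 were at most 0.217 CPM in any S136X library and at least 1.18 CPM in every R58Q library. They too were tested only because of their R58Q counts, so a call could only be higher. DRAM1, a lysosomal membrane protein that promotes autophagy, had more counts, at 3.86, 6.91 and 7.65 CPM in S136X and 23.9, 22.2 and 41.4 CPM in R58Q, with 0.712 to 0.825 CPM in vector (log2 difference 2.22, SE 0.115, adjusted p = 2.43e-10). GPR132, a receptor of lymphocytes and macrophages, gave 0.547 to 0.651 CPM in S136X and 2.07 to 2.84 CPM in R58Q, and BEGAIN, a postsynaptic protein, 0.310 to 0.456 CPM in S136X and 1.72 to 2.23 CPM in R58Q. PPP1R14C, an inhibitor of protein phosphatase 1, gave a ratio of 4.99 (interval 3.44 to 7.44), and its call was lost without the block (adjusted p = 0.106) and in DESeq2. With 13, 17 and 4 counts in S136X, it passed the filter only with its R58Q counts.

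Genes called lower in R58Q were mostly not protein-coding. Of 449 processed pseudogenes tested, 95 (21.2%) were called lower and 4 (0.891%) higher, against 40 (0.332%) and 169 (1.40%) of 12058 protein-coding genes. LncRNA genes gave 79 lower and 25 higher of 2012. Of the 74 lower lncRNAs found in GENCODE 29, 70 overlap a protein-coding gene on the other strand, beside 1077 of the 1899 tested lncRNAs found there. Lower calls made up 6.50% of the lncRNAs with such an overlap and 0.487% of the 822 without. It is not stated whether counting used the strand, so reads of these lncRNAs and of their antisense partners cannot be told apart. The share of sequence found in other genes moved with direction too. Of 916 genes with at least 50% of their sequence in other genes, 97 (10.6%) were lower and 17 (1.86%) higher, while of 7480 genes with under 1% shared, 78 (1.04%) were lower and 108 (1.44%) higher.

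The processed pseudogenes called lower summed to 314 to 348 CPM in S136X, 150 to 176 CPM in R58Q and 306 to 322 CPM in vector, and all 449 tested ones to 983 to 1078, 801 to 880 and 1009 to 1035 CPM. In both pseudogene sums the R58Q libraries lay below all other libraries, and vector overlapped S136X. The 70 lower antisense lncRNAs summed to 170 to 185 CPM in S136X, 90.2 to 95.8 CPM in R58Q and 106 to 197 CPM in vector. All 1077 tested lncRNAs with such an overlap summed to 4088 to 4452 CPM in S136X, 4112 to 4332 CPM in R58Q and 4495 to 4785 CPM in vector, so that over this whole class the mutants overlapped, unlike the processed pseudogenes. The genes called lower were chosen for being lower in R58Q, so their sums describe them and test nothing. Their vector values took no part in the choice. Vector shares its column date with S136X, however, so these values are not an independent check either. Whether the date, the construct or the mapping of reads to copies plays a part was not tested.

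**Figure D5:**
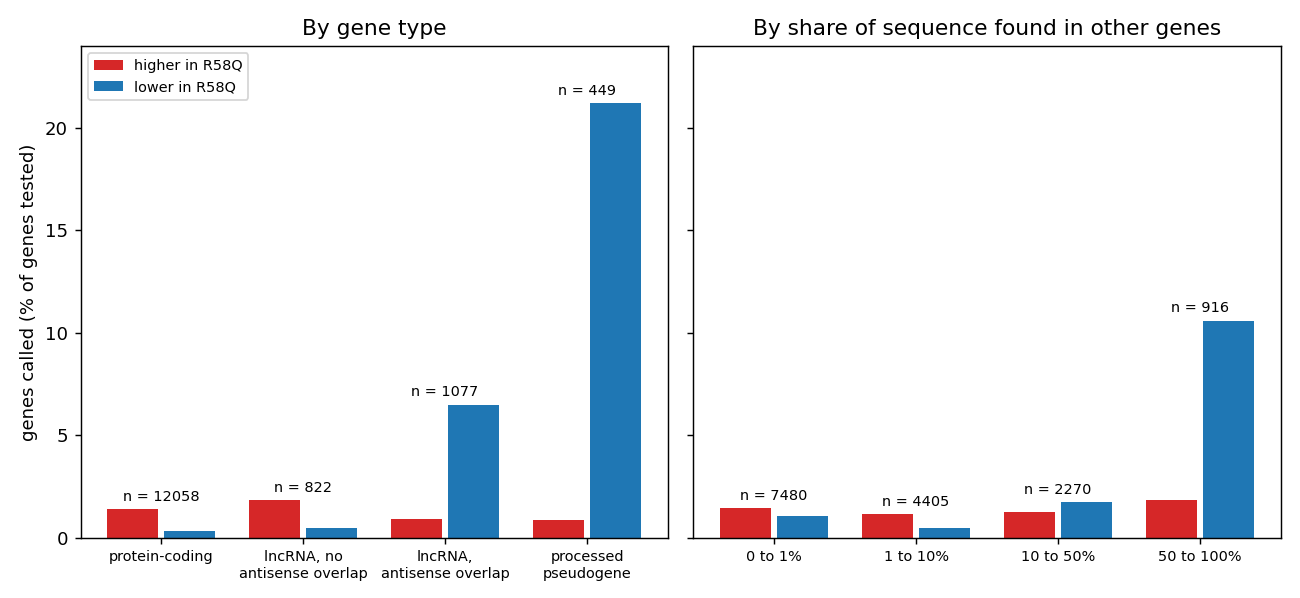
Share of tested genes called higher (red) or lower (blue) in R58Q, by gene type and by how much of the gene's sequence also occurs elsewhere; n is the number of genes tested. Lower calls reach 21.2% of processed pseudogenes, 6.50% of lncRNAs overlapping a protein-coding gene on the other strand and 10.6% of genes with at least 50% shared sequence.

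Fewer protein-coding genes were called lower (40) than higher (169). TMPRSS6, a serine protease of iron metabolism, gave 1.95, 0.899 and 1.68 CPM in S136X and 0.539, 0.200 and 0.612 CPM in R58Q, while vector lay at 0.244 to 0.559 CPM, within the range of R58Q. S136X was therefore the group that stood apart. The ratio of summed counts of S136X over R58Q was 3.27 (interval 2.30 to 4.74), and the log2 difference was -1.75 (SE 0.265, adjusted p = 1.28e-04, and 0.160 without the block). NCALD, a calcium sensor, was also highest in S136X, with vector overlapping R58Q only. Its ratio was 2.36 (interval 1.61 to 3.51), and its call was lost without the block (adjusted p = 0.279). TMPRSS6 had 16, 6 and 20 counts in R58Q, and NCALD had 17, 5 and 18. In both genes an R58Q library thus fell under the filter's minimum of 10 counts, and both were tested only with their S136X counts. NPIPB12, NPIPB3, POLR2J3 and NBPF10 belong to duplicated families, with 100, 97.6, 96.1 and 95.9% of their sequence in other genes, so their counts are uncertain. Of these 4, only NPIPB12 was also called without the block (adjusted p = 0.028), and it gave 1.78, 1.58 and 1.51 CPM in S136X and 0.573, 0.601 and 0.459 CPM in R58Q, with vector above all mutants at 1.81 to 2.24 CPM. BEST1, a chloride channel, gave 5.91, 4.99 and 6.49 CPM in S136X and 3.71, 3.31 and 3.18 CPM in R58Q (log2 difference -0.78, SE 0.125, adjusted p = 2.33e-04, and 0.0952 without the block). PABPC3, EIF2S3B, LHFPL5, DNAH11 and AC015802.6 complete the 12 lowest, with log2 differences of -0.96, -0.85, -0.93, -0.97 and -1.0 at 0.459 to 1.5 CPM in R58Q, and none of these 5 was called without the block (adjusted p from 0.106 to 0.369).

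Short windows upstream of the start of genes higher in R58Q are shown because kappa B motifs (NF-kB), GAAANNGAAA (the core of the interferon-stimulated response element) and TGANTCA (AP-1) are the sites through which the lists above are known to be driven. Both strands of the RefSeq promoters (GRCh38.p14, 250 bases before to 50 after the start) were searched. Of 27305 genes with a promoter in the table, 13.3% hold the kappa B consensus, 4.38% GAAANNGAAA and 9.37% TGANTCA. Of the 169 protein-coding genes higher in R58Q, 127 (75.1%) could be matched, so that a comparison of shares for this set is void and is not given. The motif is in capitals, written on the strand of the gene, and each window lies upstream of the start. A match is a run of letters and not evidence of binding.
IL6, kappa B, chr7:22727102-22727161, plus strand: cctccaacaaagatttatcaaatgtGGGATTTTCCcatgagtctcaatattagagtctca
NFKBIA, kappa B on the opposite strand, chr14:35404796-35404855, minus strand: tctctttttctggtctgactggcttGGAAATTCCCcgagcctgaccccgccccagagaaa
IRF1, kappa B, chr5:132490789-132490848, minus strand: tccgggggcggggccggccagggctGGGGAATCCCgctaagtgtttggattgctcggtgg
TAP1, kappa B, chr6:32853742-32853801, minus strand: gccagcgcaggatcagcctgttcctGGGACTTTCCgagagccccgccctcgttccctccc
TAP1, GAAANNGAAA on the opposite strand, chr6:32853798-32853857, minus strand: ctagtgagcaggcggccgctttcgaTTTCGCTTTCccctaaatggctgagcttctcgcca
IFIT1, GAAANNGAAA on the opposite strand, chr10:89392482-89392541, plus strand: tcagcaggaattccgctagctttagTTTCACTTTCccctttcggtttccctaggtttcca
IFIT3, GAAANNGAAA on the opposite strand, chr10:89332453-89332512, plus strand: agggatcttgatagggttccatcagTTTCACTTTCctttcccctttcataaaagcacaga
IFIT1 and IFIT3 hold the interferon element in these windows, IL6, NFKBIA and IRF1 hold kappa B, and TAP1 holds each within a short distance of the other. These windows are a selection, and the motifs did not sort by list. Among the upstream matches found, the interferon-stimulated gene XAF1 held only kappa B. The NF-kB targets BCL2A1 and SGK1 held only GAAANNGAAA, and CXCL10 held both.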

How the data were processed

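RNA of RIVA cells was poly(A)-selected and sequenced as single-end reads. The submitters' processing notes name STAR, Picard and cutadapt with hg38, and versions, counting program and annotation are not given in the sources used here. The authors deposited read counts for 60656 genes per library; their 9 columns of normalized values were not used. Counts were fitted in R 4.3.3 with edgeR 4.0.16 on the 6 mutant libraries: filterByExpr (minimum count 10, minimum total 15), TMM factors, replicate number plus construct, quasi-likelihood F test, and Benjamini-Hochberg adjustment over 15195 genes. The labels number the replicates, and every same-number correlation of deviations was above 0.1, so the numbers were treated as pairing the libraries. Each SE was taken as the absolute log2 fold change over the square root of F. CPM used TMM factors over all 9 libraries. Alternatives were no block, DESeq2 1.42.0, limma-voom (limma 3.58.1), other scalings, filters, thresholds and gene sets, all 9 libraries in 1 fit, and each pair left out; the set with under 10% shared sequence was added after the data were seen. Shared sequence is the share of 31-base words of a gene's longest GENCODE 29 transcript found in other genes (99.2% of tested genes matched). Named genes were BCL10, and, among called protein-coding genes without overlap and of at least 1 CPM in the higher mutant, the 12 highest and 12 lowest and the 5 largest for each position of vector; and up to 4 called members of each of 27 lists or, with fewer than 2, the member with the highest mean CPM. A few named genes and 1 sequence are not reported here. Members and lists were chosen with earlier results of these data known. Scripts were tested on simulated data. Counts of 0 allow up to 3 counts.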

Additional observations from a re-analysis of the deposited data

Results flagged for a closer look

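NBPF10, on chromosome 1 (146064711 to 146229000), was singled out because its mutants lay on opposite sides of vector. It stood at 3.18 CPM in each vector library, at 3.62, 3.81 and 4.25 CPM in S136X and at 2.36, 2.61 and 2.54 CPM in R58Q. The direct log2 difference was -0.65 for R58Q minus S136X (SE 0.138, adjusted p = 0.00312 in edgeR with the replicate block, and 0.130 without it). Against vector, neither mutant passed the adjusted p, with log2 differences of 0.29 for S136X (adjusted p = 0.194) and -0.35 for R58Q (adjusted p = 0.109), which share the vector libraries. As 95.9% of its sequence occurs in other genes, the assignment of its reads is uncertain, and its part in the difference was not tested.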

How the results depend on the processing

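Against 446 calls with the replicate block (206 higher, 240 lower), edgeR called 66 without it (41 higher, 25 lower), all 66 of them within the 446. DESeq2 with the block called 229, 83 of them lower, the fit of all 9 libraries 144 lower, protein-coding genes alone 213 (42 lower), and genes with under 10% shared sequence, a set chosen after seeing the data, 256 (99 lower). An adjusted p under 0.01 gave 287 calls (126 lower), no fold threshold 2211 (1191 higher, 1020 lower), and at least 2-fold 194 (74 higher, 120 lower). With each replicate pair left out, 143 to 252 genes were lower. BCL10 kept its direction under every alternative, at -0.31 without the block (adjusted p = 0.363) and -0.30 in the fit of all 9 libraries (adjusted p = 0.105), beside adjusted p from 2.85e-11 to 0.0241 elsewhere. Of the other 67 named genes, 34 kept their side of the threshold without the block and 33 lost the call, 11 lost it in DESeq2, 8 with all 9 libraries, 7, 1 and 5 without replicates 1, 2 and 3, and none changed direction. The cause of these changes was not tested.

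Most list medians moved by less than their spread over the 3 pairs. Upper-quartile scaling moved JAK-STAT and SOCS genes to 0.051, NF-kB feedback and adaptors to 0.084 and proliferation genes to 0.026. With no filter the median was 0.21 for AP-1 and BATF factors, 0.077 for JAK-STAT and SOCS genes, 0.17 for MHC class II genes, -0.25 for T-cell and NK-cell markers, 0.43 for cytokine ligands, -0.15 for epithelial, stromal and erythroid markers and 0.052 for proliferation genes. The fit of all 9 libraries gave 0.20 for AP-1 and BATF factors, 0.079 for JAK-STAT and SOCS genes, 0.061 for T-cell and NK-cell markers and 0.053 for proliferation genes. At least 10 counts in every library gave 0.065 for T-cell and NK-cell markers and 0.019 for epithelial, stromal and erythroid markers, which DESeq2 put at -0.0035. Protein-coding genes alone gave 0.061 for JAK-STAT and SOCS genes, -0.16 for T-cell and NK-cell markers and 0.036 for proliferation genes. Under 10% shared sequence gave 0.034 for JAK-STAT and SOCS genes, 0.033 for MHC class II genes and 0.79 for interferon-gamma and GBP genes.

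With each pair left out, medians ranged from -0.039 to 0.032 for the CBM complex and IKK, 0.10 to 0.12 for NF-kB feedback and adaptors, 0.14 to 0.18 for cytokine and TNF receptors, 0.42 to 0.48 for interferon-gamma and GBP genes, 0.063 to 0.085 for JAK-STAT and SOCS genes, 0.067 to 0.12 for VDAC and TOMM genes, 0.038 to 0.059 for proliferation genes, -0.14 to -0.053 for cholesterol synthesis genes, -0.083 to -0.035 for ATF4 amino acid stress genes, -0.16 to 0.031 for T-cell and NK-cell markers and -0.059 to 0.059 for epithelial, stromal and erythroid markers. Scaling moved the median of all genes by less than 0.1. The limits are 3 libraries per mutant, a date that coincides with the construct, and low counts for most genes called lower.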
